A study of Mus musculus with 9 samples.

Results

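Gene bodies whose transcription in mouse liver peaked or dipped at 12 months of age are described here, from tissue native elongating transcript sequencing (tNET-seq) of C57BL/6N livers at 3, 12 and 18 months. A gene body ran from 200 bases after the transcription start site (TSS) to 200 bases before the transcription end site (TES) of the canonical transcript. Genes were chosen by their own reads: a gene peaked if its normalised gene-body reads in every 12-month library lay above those in every 3-month and 18-month library, and dipped if they lay below. Of 11037 protein-coding autosomal genes longer than 2 kb with no other protein-coding gene within 2.5 kb, 5192 had a mean of at least 100 sense gene-body reads over the 9 libraries. Among these 5192 genes, 131 peaked and 242 dipped at 12 months, 373 in all. These values chose the genes, so the gene-body differences at 12 months are given as a description, with no test.

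tNET-seq is designed to sequence nascent RNA from chromatin by its 3′ end, so that each read marks the position of a transcribing polymerase. The reads in a gene body are taken here as a measure of nascent transcription. Read density on exons over that on introns was 2.11 to 2.92 in the 9 libraries. Whether spliced RNA was among these reads was not tested. Chromatin-associated RNA was isolated in the presence of alpha-amanitin, which blocks RNA polymerase II (Pol II). The study used the livers of 9 male mice, 3 at each age with 1 library each, and the labels give no difference between the groups other than age. In the mixed cells of a whole liver, fewer cells of a type and less transcription per cell cannot be told apart. The liver clears drugs, steroids and bile acids with cytochrome P450 enzymes and conjugating enzymes, makes plasma and complement proteins, and is known to express many of these genes at different levels in males and females under the control of growth hormone pulses.

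The libraries held 15003713 to 50707801 reads, of which 5675831 to 20797359 lay in the gene bodies of the 5192 genes. Normalised reads are given as reads-per-million of that sum (RPM). The 12-month libraries did not all lie above, or all below, the other 6 in any of 11 library measures. Their depth was 19123186 to 50707801 reads, against 15003713 to 49307594 in the other 6 libraries. Their share of mitochondrial reads was 0.680% to 0.966%, against 0.547% to 1.29%, and their TMM scaling factors were 0.964 to 1.01, against 0.969 to 1.04. Hepatocyte marker genes summed to 33583 to 39913 RPM at 3 months, 32065 to 36294 at 12 months and 24677 to 31368 at 18 months, below both younger ages, and 0 of their 5 tested genes peaked or dipped. Of the tested markers of other liver cells, 1 dipped, the collagen gene Col1a1, at a low 4.56, 6.73 and 5.02 RPM at 12 months. The 12-month sums overlapped with those of the other 6 libraries for markers of Kupffer and other immune cells (528 to 695 RPM at 12 months), endothelial cells (1303 to 1476, against 1197 to 1643), stellate cells and fibroblasts (676 to 805) and cholangiocytes (20.2 to 21.8, against 15.5 to 28.1). The sums at 18 months lay below those at 3 months for immune cells (516 to 610, against 667 to 774) and for stellate cells and fibroblasts (663 to 731, against 738 to 791). None of these markers was at 0.

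The shares of tested genes that peaked and dipped at 12 months were 2.52% and 4.66%. A given set of 3 of the 9 libraries is the highest in 1 of 84 arrangements, or 1.19%, but genes of a library move together, so this share is no test. Every 3-month library lay above every other library in 5.82% of the genes and below in 9.13%, and every 18-month library lay above in 12.0% and below in 3.41%. The 12-month libraries thus held the highest position in fewer genes than those of either other age did. They held the lowest position in fewer genes than the 3-month libraries, but in more than the 18-month libraries. The peaking genes were a median of 1.30-fold higher at 12 months than at the other ages (from 1.06-fold to 5.49-fold), computed from mean log2 values with a pseudocount of 0.1 RPM. The dipping genes were a median of 1.22-fold lower (from 1.06-fold to 18.5-fold). The gap between the nearest 12-month library and the nearest other library was small for most genes, with a median of 1.04-fold in both groups.

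The number and mix of genes depended on the scaling. With TMM factors, 190 genes peaked and 220 dipped, so that peaking genes made up 46.3% of both in place of 35.1%. Scaled by all reads of each library, 139 peaked and 99 dipped (58.4% peaking), and 95 of the 242 dipping genes stayed dipping. With the trend of each library on GC content removed, a choice made after seeing the data, 171 peaked and 161 dipped (51.5% peaking), sharing 105 and 124 genes with the 131 and 242. Across 12 such alternatives, 17 peaking and 14 dipping genes kept their call each time, which also needs at least 500 mean reads. The peaking ones included Cyp17a1, Cyp2c38, Slco1a4, Ces1b, Aldh3a2, Rfx4 and Zfp36l1. The dipping ones included Egfr, C6, Scara5, Etfbkmt, Kcnt2 and Dhx9. All genes passed the read minimum over the 9 libraries, but 3 peaking genes, Cyp2c39 among them, were under 100 reads on average at the other ages and 5 dipping genes, including Moxd1, Fmn2 and Col1a1, were under it at 12 months.

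At the edge of the rule, genes on both sides of the line differed little. Tlcd2 and Trio were just inside the peaking genes. The lowest 12-month library of Tlcd2 had 24.862 RPM, beside 24.854 in the highest other library. Pdp2 and Ralb fell just outside, with 50.393 and 66.130 in their lowest 12-month library against 50.401 and 66.144. Among dipping genes, Necap1 and Top1 were just inside and U2af1 and Hdac2 just outside. Necap1 had 66.661 RPM in its highest 12-month library and 66.663 in its lowest other library.

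The upstream sequences of 5 genes are shown here because the reads at these starts, or the gene groups they stand for, recur below. They are the 250 bases before the RefSeq start on GRCm38.p6, 5′ to 3′ on the gene's strand. Cyp2c38 (chr19:39463076-39463325, minus strand) and Cyp2c39 (chr19:39510572-39510821, plus strand) are neighbouring peaking genes, and Cyp2a5 (chr7:26835089-26835338, plus strand) also peaked. Egfr (chr11:16751953-16752202, plus strand) and the splicing kinase gene Prpf4b (chr13:34875279-34875528, plus strand) dipped. Cyp17a1, Cyp4a14, Cyp7b1, Cyp4a12a and Scara5 have no entry in the table used. Capitals mark the forkhead motif TGTTTAC and the TATA motif TATAAA in the cytochrome P450 genes, and the ETS motif CCGGAAG and the GC box GGGCGG, on either strand, in the other genes.
Cyp2c38: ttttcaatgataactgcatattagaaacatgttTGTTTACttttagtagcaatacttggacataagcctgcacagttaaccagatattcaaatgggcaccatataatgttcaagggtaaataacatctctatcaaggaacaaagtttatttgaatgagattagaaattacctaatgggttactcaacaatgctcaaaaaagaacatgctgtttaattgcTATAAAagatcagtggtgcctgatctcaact
Cyp2c39: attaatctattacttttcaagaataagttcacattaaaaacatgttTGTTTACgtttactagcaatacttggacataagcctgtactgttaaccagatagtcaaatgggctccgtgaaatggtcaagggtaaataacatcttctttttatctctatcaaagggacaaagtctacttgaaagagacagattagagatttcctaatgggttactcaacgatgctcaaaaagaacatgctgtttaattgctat
Cyp2a5: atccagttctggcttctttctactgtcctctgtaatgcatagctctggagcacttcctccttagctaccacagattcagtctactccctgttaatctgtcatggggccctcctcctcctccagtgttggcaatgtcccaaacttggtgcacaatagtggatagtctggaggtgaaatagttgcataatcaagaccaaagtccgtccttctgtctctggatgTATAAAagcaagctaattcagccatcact
Egfr: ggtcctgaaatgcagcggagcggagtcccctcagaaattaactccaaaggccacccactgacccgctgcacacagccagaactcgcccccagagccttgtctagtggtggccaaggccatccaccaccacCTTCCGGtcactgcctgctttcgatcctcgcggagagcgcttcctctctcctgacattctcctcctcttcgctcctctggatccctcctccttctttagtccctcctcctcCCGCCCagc
Prpf4b: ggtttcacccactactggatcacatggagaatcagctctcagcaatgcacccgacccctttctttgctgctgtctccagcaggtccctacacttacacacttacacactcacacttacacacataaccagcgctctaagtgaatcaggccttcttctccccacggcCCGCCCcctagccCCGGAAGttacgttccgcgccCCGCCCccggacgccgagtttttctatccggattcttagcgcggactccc

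The TATA motif began 31 bases before the start of Cyp2c38 and 29 bases before that of Cyp2a5. The forkhead motif lay 217 bases before the start of Cyp2c38 and 204 bases before that of Cyp2c39. The RefSeq start of Cyp2a5 lies downstream of the start of its gene record (chromosome 7, 26835305). The TATA motif of Cyp2a5 thus lies inside that record. The RefSeq start of Cyp2c39 lies upstream of the start of its gene record. Its printed sequence ends inside the run of bases that goes on to TATAAA in Cyp2c38. A TATA motif there could thus not be seen, and distances in these 2 genes are not measured to matching points. The ETS motif began 120 bases upstream of Egfr and 71 bases upstream of Prpf4b. The GC content of these sequences was 32.4% for Cyp2c38, 33.2% for Cyp2c39, 46.4% for Cyp2a5, 60.8% for Egfr and 57.2% for Prpf4b. Over all promoters matched, which also hold 50 bases after the start, the median was 60.3% for peaking, 62.7% for dipping and 62.0% for all tested genes.

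The largest peak by the gap between libraries was in Cyp2c38, a cytochrome P450 gene on GRCm38 chromosome 19 (gene record 39389556 to 39463075). It had 857, 748 and 492 RPM at 3 months, then 1981, 1759 and 1469.8 at 12 months, then 772, 598 and 285 at 18 months. The lowest 12-month library was 1.71-fold above the highest other one, and the mean log2 difference corresponded to 2.93-fold. Its neighbour Cyp2c39 (chromosome 19, 39510862 to 39568529) was far less transcribed, at 8.05, 6.21 and 5.91 RPM at 3 months, then 13.1, 15.0 and 11.8 at 12 months, then 7.22, 5.63 and 3.01 at 18 months. Its 12-month libraries were 2.28-fold higher, but it averaged under 100 reads at the other ages and passed the read minimum only through the 12-month libraries. The Cyp2c genes are close copies whose reads an aligner can lose or share, so the value of each copy is uncertain.

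Cyp17a1 (chromosome 19, 46667165 to 46673172), the steroid 17-alpha-hydroxylase, had 25.8, 21.7 and 15.9 RPM at 3 months, then 49.7, 83.3 and 53.9 at 12 months, then 29.2, 34.1 and 19.8 at 18 months. The 18-month libraries lay close to the 3-month ones, and the 12-month mean was 2.56-fold higher. Cyp3a59 (chromosome 5, 146079257 to 146113287) had 38.3, 33.5 and 16.2 RPM at 3 months, then 68.5, 47.2 and 57.7 at 12 months, then 16.4, 21.3 and 21.0 at 18 months. Its neighbour Cyp3a25 also peaked, at 1.68-fold. Cyp4a14 (chromosome 4, 115486200 to 115496142), a fatty acid omega-hydroxylase, had the largest fold of all peaking genes. It was at 17.7, 21.6 and 12.3 RPM at 3 months, then 170.5, 282 and 146 at 12 months, then 139.7, 106 and 25.3 at 18 months, 5.49-fold higher at 12 months with an 18-month group spread over most of the range between the other ages.

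In the list of cytochrome P450 genes, 8 of 39 tested genes peaked and 4 dipped, beside 2.52% and 4.66% of all tested genes. The 8 include Cyp2c39, with its few reads at the other ages. The median log2 difference between 12 months and the mean of the other ages was 0.12 for the list, beside -0.03 for all 5192 tested genes. With TMM factors and with scaling by all reads the counts were again 8 and 4, but on exonic positions alone 7 peaked and 0 dipped. On intronic positions alone 5 peaked and 4 dipped, 20 were higher and 19 lower, and the median was 0.01. With a cap of 5 reads per position 5 peaked. Of all tested genes, 2.23% to 3.66% peaked and 1.91% to 5.76% dipped under these settings. The other peaking members were Cyp2c50 at 1.52-fold and Cyp2a5 at 1.64-fold. The coumarin hydroxylase gene Cyp2a5 had 85.6, 104 and 75.3 RPM at 12 months, against 72.5, 66.0 and 57.4 at 3 months and 58.0, 49.6 and 28.7 at 18 months. The 4 dipping members were Cyp7b1, Cyp4a12a, Cyp4a12b and Cyp2c70. Fatty acid hydroxylases of the Cyp4a cluster on chromosome 4 were on both sides, with Cyp4a14 among the peaking and Cyp4a12a and Cyp4a12b among the dipping genes. The P450 gene with the largest difference, Cyp2b9, met neither rule and was chosen here after its values were seen. It had 0.833, 0.714 and 0.426 RPM at 3 months, then 56.5, 104 and 29.4 at 12 months, then 43.0, 28.5 and 29.9 at 18 months.

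Conjugating enzymes were another enzyme group with several peaking genes. Of 30 tested genes for glutathione metabolism, NRF2 targets and conjugation, 6 peaked and 0 dipped, beside 2.52% and 4.66% of all tested genes. At 12 months 25 were higher, beside 2281 of all 5192, and the median log2 difference was 0.26. The count of peaking ones was 2 on intronic positions alone, 1 of 21 tested at a minimum of 500 reads and 4 with thinned libraries. It was 5 to 8 under the scalings, the GC trend and exonic positions. Of all tested genes, 2.23% to 3.66% peaked under these settings. The 6 were the glutathione transferase genes Gstm1, Gstm2, Gstm3, Gsta4, Gstk1 and Mgst3, at 1.33-fold to 1.93-fold. Gstm3 (chromosome 3, 107963696 to 107969283) had 19.5, 24.8 and 16.4 RPM at 12 months, 11.9, 10.9 and 8.41 at 3 months, and 10.6, 12.5 and 10.5 at 18 months. Gstm1, Gstm2 and Gstm3 lie within 42.97 kb of one another and are close copies, so their 3 calls are not separate observations. Mgst3, a microsomal member, had 16.1, 23.4 and 16.7 RPM at 12 months, 10.1, 7.93 and 5.48 at 3 months and 8.46, 13.7 and 14.4 at 18 months.

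Bile acid genes were split. Of 13 tested, 3 peaked and 1 dipped, beside 2.52% and 4.66% of all tested genes. On intronic positions, on exonic positions and between the coding sequence ends 1 peaked, beside 2.23% to 2.68% of all tested genes. The peaking ones were Slco1a4, an uptake transporter, Akr1d1, a steroid 5-beta-reductase, and Abcb11, the bile salt export pump, while the dipping one was Cyp7b1, the oxysterol 7-alpha-hydroxylase. Slco1a4 (chromosome 6, 141805440 to 141856199) had 99.9, 105 and 103 RPM at 3 months, then 149.7, 126 and 127 at 12 months, then 47.6, 60.1 and 37.9 at 18 months. Its 18-month libraries were the lowest, below its 3-month level. Abcb11 peaked by only 1.22-fold, with 2056, 2081 and 2212 RPM at 12 months and 2034 in the highest library of the other ages.

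Peaking genes outside these enzyme groups included Serpinb1a (chromosome 13, 32842092 to 32851185), which encodes an inhibitor of neutrophil serine proteases. It had 4.30, 4.71 and 3.04 RPM at 3 months, then 21.7, 23.2 and 20.9 at 12 months, then 10.6, 15.4 and 9.04 at 18 months, 3.23-fold higher at 12 months, with the ages in 3 separate ranges. Osbpl3 (chromosome 6, 50293330 to 50456201), an oxysterol-binding protein relative, had 23.3, 26.8 and 19.1 RPM at 3 months, then 128, 186 and 155 at 12 months, then 115, 111 and 114 at 18 months. Neither returned to its 3-month level.

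Fam19a2, a gene for a small secreted protein, had 143, 202 and 206 RPM at 12 months, 72.1, 86.1 and 68.9 at 3 months and 74.0, 105 and 96.0 at 18 months. Slc16a7, a monocarboxylate transporter gene, had 199.8, 252 and 239.7 at 12 months and 104 to 148 in the other 6 libraries. Zfp36l1, whose product binds AU-rich elements and speeds mRNA decay, had 336, 374 and 325 at 12 months and at most 258 in another library. These 3 genes returned at 18 months to near their 3-month level. Rfx4, a transcription factor gene, peaked at 1.90-fold and Sema5b, a semaphorin gene, at 2.03-fold. Lipc, the hepatic lipase gene, had 1749.9, 1714 and 2100.3 RPM at 12 months and at most 1468 elsewhere. The nuclear receptor gene Rora had 1342, 1406 and 1385 at 12 months and 1083 to 1222 elsewhere, and was the 1 peaking gene among 11 tested clock genes.

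**Figure D1:**
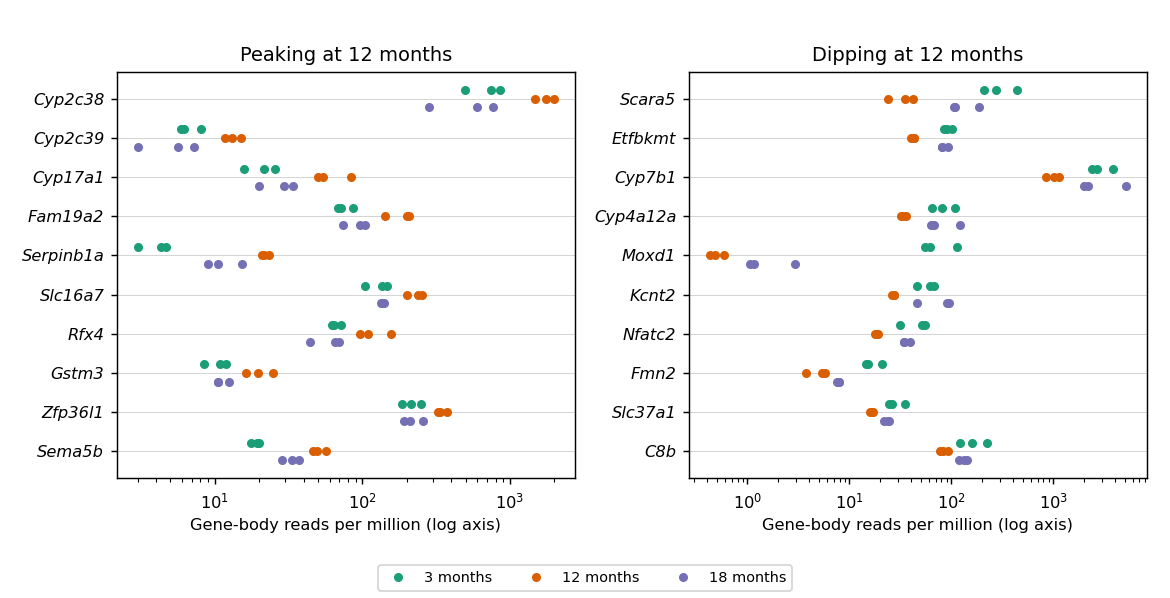
Gene-body RPM (log axis) in each of the 9 libraries for the 10 peaking genes (left) and the 10 dipping genes (right) with the widest gap between the 12-month libraries and the others; each point is 1 library. By the rule, every 12-month point lies to the right of all other points of its gene on the left and to the left of them on the right. Moxd1 at 18 months is nearer its 12-month than its 3-month level.

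The widest dip was in Scara5 (chromosome 14, 65666403 to 65764826), a scavenger receptor gene whose product takes up ferritin. It had 273, 211 and 437 RPM at 3 months, then 35.0, 23.9 and 41.6 at 12 months, then 189, 106 and 109 at 18 months. The 12-month libraries were 5.96-fold lower, and the highest of them was far below the lowest other library, at 106. Cyp7b1 (chromosome 3, 18071950 to 18243338) had 2659, 2380.1 and 3892 RPM at 3 months, then 1026, 857 and 1139 at 12 months, then 5143, 2195 and 2016 at 18 months, a 2.87-fold dip in one of the more transcribed genes. Egfr (chromosome 11, 16752203 to 16918158), the epidermal growth factor receptor gene, had 6894, 9158 and 15067 at 3 months, then 2052, 2889 and 2053 at 12 months, then 13006, 7862 and 3456 at 18 months. Its dip was 3.62-fold, and the 18-month libraries covered a range of more than 3-fold, with replicate 3 near the 12-month level.

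Cyp4a12a (chromosome 4, 115299046 to 115332815) and Cyp4a12b (115411624 to 115439034) are close copies of a fatty acid hydroxylase gene. Cyp4a12a had 81.2, 64.1 and 109 RPM at 3 months, then 31.8, 33.9 and 35.9 at 12 months, then 122, 63.4 and 67.7 at 18 months. Cyp4a12b had 48.8, 52.9 and 65.7 at 3 months, then 10.3, 6.97 and 16.4 at 12 months, then 69.2, 32.6 and 20.8 at 18 months. Both dipped, by 2.41-fold and 4.21-fold, and the split of reads between these copies is uncertain.

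Moxd1 (chromosome 10, 24223517 to 24302790), a relative of dopamine beta-hydroxylase, had the largest fold of the dipping genes, but its course was a loss rather than a dip. It had 61.2, 55.6 and 114 RPM at 3 months, then 0.427, 0.481 and 0.586 at 12 months, then 1.06, 1.17 and 2.94 at 18 months. The 18.5-fold difference from the mean of both other ages came from the 3-month libraries, through which alone it passed the read minimum. Fmn2, an actin nucleator gene, took a similar course at a smaller scale, with 14.6, 15.1 and 20.7 RPM at 3 months, then 5.41, 3.75 and 5.78 at 12 months, then 7.93, 7.91 and 7.50 at 18 months.

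Etfbkmt (chromosome 6, 149139849 to 149151171), a mitochondrial lysine methyltransferase gene, had the tightest groups of the strong dips, with 42.9, 42.8 and 40.3 RPM at 12 months against 80.9 to 102 in the other 6 libraries. Kcnt2, a potassium channel gene, had 27.3, 27.6 and 25.9 at 12 months and 45.8 to 95.7 elsewhere. Nfatc2, a calcineurin-regulated transcription factor gene, had 17.7, 18.7 and 19.0 at 12 months and 31.0 to 54.7 elsewhere, but was higher at 12 months when exonic positions alone were counted. Slc37a1, a sugar phosphate transporter gene, dipped by 1.55-fold.

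Terminal complement genes were among the dipping genes. C6 (chromosome 15, 4727175 to 4814967) had 609, 457 and 703 RPM at 3 months, then 244, 189.9 and 288 at 12 months, then 597, 366 and 478 at 18 months. C8b (chromosome 4, 104766317 to 104804548) had 83.2, 77.6 and 92.2 at 12 months and 119 to 224 elsewhere, and C9 had 309, 349.6 and 345 at 12 months and 364 to 581 elsewhere. The dips were 2.20-fold, 1.74-fold and 1.32-fold. In the list of acute phase and complement genes, which does not hold C6, 2 of 17 tested genes dipped, beside 4.66% of all tested genes, and 0 peaked. The dips were 3 on intronic positions, 0 on exonic positions and 1 when scaled by all reads, beside 3.52%, 3.78% and 1.91% of all tested genes.

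The list of sex-biased and growth hormone response genes held 18 tested genes, of which 4 dipped (C6, Cyp7b1, Keg1 and Nudt7), beside 4.66% of all tested genes, and 0 peaked. Its median log2 difference was -0.38 and 14 of the 18 were lower at 12 months, beside 2911 of all 5192, with Cyp2b9 the largest exception. Keg1 dipped by 1.61-fold and Nudt7 by 1.56-fold. The largest negative difference in a gene of the list that met neither rule, chosen after its values were seen, was in Socs2, an inhibitor of growth hormone signalling and a target of it, with 2.99, 6.64 and 4.35 RPM at 12 months, 19.4, 11.1 and 35.8 at 3 months, and 34.9, 11.1 and 5.37 at 18 months. Its 12-month and 18-month ranges overlapped. Slco1a1, an uptake transporter gene, was also lower at 12 months, with overlap (a log2 difference of -1.02). As background, Cyp7b1, Cyp4a12a and Cyp4a12b are known as male-predominant genes of mouse liver, and Cyp2b9, Cyp4a14, Cyp17a1 and Slco1a4 as female-predominant ones. These genes were set side by side after their values were seen, and no test was made of it. Only Cyp7b1 and Cyp2b9 of them are in the list. Other genes of the list, Mup20, Mup3, Mup21, Cyp2d9 and Fmo2 among them, met neither rule.

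In the list of splicing and mRNA processing genes, 9 of 32 tested genes dipped, beside 4.66% of all tested genes, and 0 peaked. At 12 months 31 of the 32 were lower, beside 2911 of all 5192, with a median log2 difference of -0.19. They included Sf3b1, Hnrnph1, Srsf1, Srsf3, Srsf6, Prpf4b, Ddx46 and Rbm5, which encode a core splicing factor, SR and hnRNP proteins, a splicing kinase, a helicase and an RNA-binding protein. Their dips were shallow. Sf3b1 (chromosome 1, 54985169 to 55027481) had 226, 228 and 233 RPM at 3 months, then 191, 196 and 200.1 at 12 months, then 244, 233 and 238 at 18 months, a 1.19-fold dip with libraries of an age very close together. Srsf6 had 107, 102 and 115 at 12 months and 125 to 146 elsewhere, but was not lower at 12 months when intronic positions alone were counted (a log2 difference of 0.08). Hnrnph1 had 111, 120.1 and 126 at 12 months and 127 to 178 elsewhere. The count of dipping splicing genes was 8 with TMM factors, 4 when scaled by all reads and 6 with thinned libraries. It was 9 with the GC trend removed, 4 on intronic and 1 on exonic positions. Of all tested genes, 4.24%, 1.91%, 3.76%, 3.10%, 3.52% and 3.78% dipped under these settings, in the same order. Under each of them 29 to 31 of the 32 splicing genes were lower.

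Regulators of pausing, elongation and termination showed shallow dips, which depended on the scaling. Of 16 tested, 3 dipped, beside 4.66% of all tested genes, and 0 peaked. At 12 months 14 were lower, beside 2911 of all 5192, with a median log2 difference of -0.08. They were Cdk12, an elongation kinase gene, with 142, 149 and 146 RPM at 12 months and 150.2 to 188 elsewhere, and the termination factor genes Pcf11 (101, 122 and 124, against 128 to 152) and Xrn2 (162, 173 and 175, against 183 to 235). Ribosomal protein and translation factor genes had 2 dips, Rpl11 and Rpl14, among 28 tested (7.14%, beside 4.66% of all tested genes). Scaled by all reads of each library, 0 of the pausing and elongation regulators and 0 of the ribosomal genes dipped, beside 1.91% of all tested genes. With the GC trend removed 0 and 3 did, beside 3.10% of all tested genes.

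The other lists held few or no members, and are to be read against the 2.52% of all tested genes that peaked and the 4.66% that dipped. Of 21 tested PPAR-alpha targets and fatty acid oxidation genes, 2 peaked (Cyp4a14 and Ehhadh, a peroxisomal beta-oxidation gene) and 2 dipped (Cyp4a12a and Cyp4a12b). Of 25 tested amino acid and urea genes, Hgd and Mat1a peaked, at 1.30-fold and 1.17-fold. Pdk4, which encodes a kinase that restrains pyruvate oxidation, was the 1 peaking gene of 19 tested fasting and glucocorticoid genes, with 39.9, 44.6 and 39.3 RPM at 12 months and 16.5 to 35.6 elsewhere. Of 28 nuclear receptor and hepatocyte transcription factor genes 1 peaked (Rxrg), of 24 lipoprotein and plasma protein genes 1 peaked (Lipc), of 14 respiration genes 1 dipped (Ogdh), and of 11 cell cycle and DNA damage genes 1 dipped (Cdkn1b, which was higher at 12 months on intronic positions alone). No gene peaked or dipped among 16 fatty acid and triglyceride synthesis, 10 cholesterol, 9 heat shock, 13 endoplasmic reticulum stress and 8 immediate early genes tested. Higher at 12 months were 12 of the fatty acid and triglyceride synthesis (median log2 difference 0.14), 9 of the cholesterol (0.21) and 6 of the immediate early genes (0.19). So were 4 of the heat shock (-0.20) and 6 of the endoplasmic reticulum stress genes (-0.01), beside 2281 of all 5192.

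**Figure D2:**
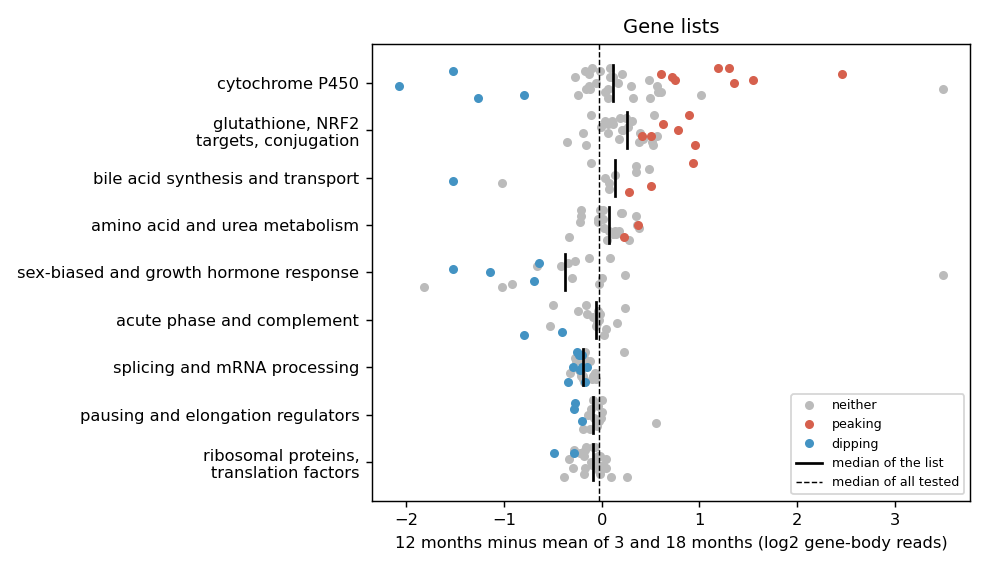
Difference in gene-body reads between 12 months and the mean of 3 and 18 months (log2, x axis) for every tested gene of 9 lists (rows); points are genes, coloured by whether they peaked, dipped or met neither rule, bars mark the median of each list and the dashed line the median of all tested genes. Splicing genes sit in a narrow band to the left (median -0.19) and P450 genes spread to both sides (median 0.12), with Cyp2b9 far to the right.

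At 18 months the peaking genes were placed on both sides of their 3-month level. The 18-month mean of 61 of the 131 was at or beyond the 3-month level on the far side from the 12-month value, 51 lay nearer to 3 months and 19 nearer to 12 months. Of the 242 dipping genes, 162 ended beyond the 3-month level, 66 nearer to 3 months and 14 nearer to 12 months. The 18-month mean was above the 3-month mean in 70 of the 131 peaking and 162 of the 242 dipping genes, and in 3048 of all 5192 tested genes. The median log2 difference over all tested genes was only 0.06, and the TMM factors, not used in these counts, were 0.969 to 1.00 at 3 months and 1.02 to 1.04 at 18 months, a gap of about that size. Every 18-month library lay above every 3-month library in 20 of the peaking and 48 of the dipping genes (15.3% and 19.8%), beside 25.0% of all tested genes. It lay below in 7 and 16 genes (5.34% and 6.61%), beside 12.0% of all.

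The 18-month and 3-month libraries were also compared with edgeR across all 5192 genes. The rule used these same gene-body values and cannot be met by a gene with a steady rise or fall, so the calls of members are a description, and no p is given for them. The sums of hepatocyte, immune and stellate cell markers were also lower at 18 than at 3 months, and their part in these differences was not tested. At 18 months, 6.18% of all genes were higher and 5.28% lower by this test. Among the 131 peaking genes, 8 were called higher (6.11%) and 1 lower. Among the 242 dipping genes, 2 were called higher and 4 lower (1.65%). The rule keeps the other ages on one side of the 12-month libraries, so nothing is read from these shares against those of all genes.

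Among peaking genes, the fitted log2 change at 18 against 3 months was 2.25 ± 0.14 (SE) for Osbpl3, 2.34 ± 0.56 for Cyp4a14, 1.51 ± 0.23 for Serpinb1a, 0.82 ± 0.15 for Adra1a and 0.75 ± 0.12 for Sema5b. Slco1a4 was the 1 peaking gene called lower, at -1.13 ± 0.16 (SE). The call of Cyp4a14 was lost in 5 of the 9 fits with 1 library left out. On intronic positions alone Cyp4a14 and Sema5b lost the call. Among dipping genes the fitted change was -5.47 ± 0.42 for Moxd1 and -1.17 ± 0.20 for Fmn2 (SE), both low in reads outside 3 months, -1.26 ± 0.33 for Scara5 and 0.20 ± 0.05 for the splicing kinase gene Prpf4b. The call of Prpf4b was lost in all 9 fits with 1 library left out and kept in only 2 of 6 other alternatives. Scara5 lost its call in 6 of the 9 fits. Of the 15 calls of members, 7 stood when any 1 library was left out. Without 18 months replicate 2, the counts became 6 higher and 6 lower among peaking genes and 7 higher and 2 lower among dipping genes. Over all genes that fit called 344 higher and 347 lower.

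**Figure D3:**
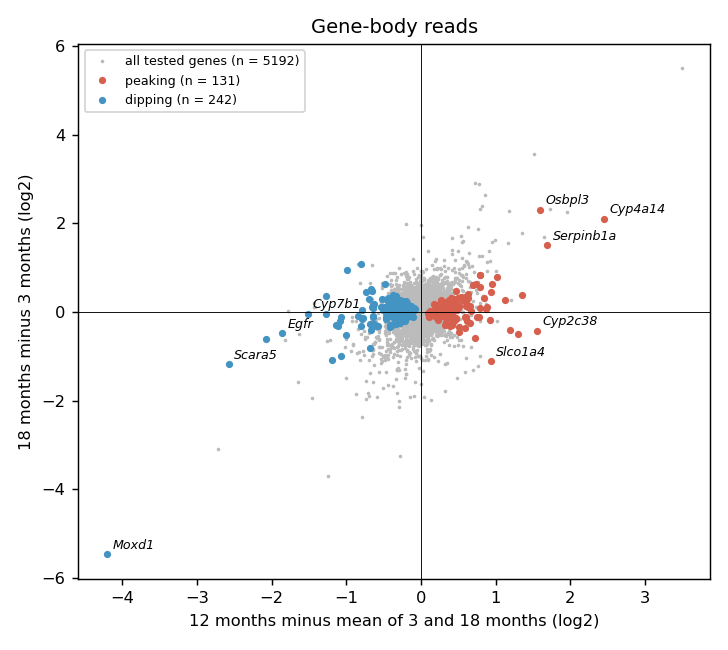
Gene-body reads of all 5192 tested genes (grey), the 131 peaking (red) and the 242 dipping genes (blue); the x axis is the log2 difference between 12 months and the mean of 3 and 18 months, which chose the coloured genes, and the y axis the log2 difference between 18 and 3 months. Most members lie near 0 on the y axis, while Moxd1 (-5.47), Osbpl3 (2.25) and Cyp4a14 (2.34) lie far from it (values of the edgeR fit).

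Reads outside the gene body were then compared at 12 months against the mean of 3 and 18 months. The windows were the promoter-proximal region (TSS ± 200 bases), a downstream region from 200 to 2500 bases past the TES, and the 700 bases before the TSS on the opposite strand. They hold other reads than the rule used, but come from the same livers and libraries and from the same contrast, so the members' counts are given beside the background as a description and are not independent evidence. Window values are RPM of all reads in that window over the 5192 genes, so they do not show a change in the total of a window. Of promoter-proximal and gene-body reads together, the promoter-proximal share was 2.48% to 2.67% at 3 months. It was 1.96% to 2.05% at 12 months and 1.30% to 1.92% at 18 months.

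Downstream of the TES, where polymerases run on before termination, 104 of 131 peaking genes were higher at 12 months and 179 of 240 dipping genes with reads were lower. Of all tested genes, 50.9% were higher. The median log2 difference was 0.32 for peaking genes, -0.18 for dipping genes and 0.01 for all. edgeR called 0.350% of 5144 genes higher and 0.253% lower. Among these were 8 peaking genes called higher and 1 called lower, and 6 dipping genes called lower. Every 12-month library lay above every other in 14 of the 131 peaking genes (10.7%), beside 1.75% of all genes, and below in 11 of the 240 dipping genes (4.58%), beside 1.19% of all genes.

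Cyp4a14 had 38.4 ± 11.7 downstream RPM at 3 months, then 232 ± 25.4 at 12 months, then 84.0 ± 89.7 at 18 months (SD, n = 3 each), a log2 change of 2.26 ± 0.28 (SE, edgeR adjusted p = 2.29e-06). The acyl-CoA amino acid N-acyltransferase gene Acnat2 had 239.8 ± 7.95, 1039.7 ± 326 and 659 ± 83.0 (SD, n = 3 each), 1.38 ± 0.18 higher (SE, edgeR adjusted p = 3.54e-06). Cyp2c38 was 1.41 ± 0.22 higher (SE, edgeR adjusted p = 0.000187). Cyp7b1 fell from 357 ± 129.7 at 3 months to 70.7 ± 44.3 at 12 months and was at 352 ± 143 at 18 months (SD, n = 3 each), a log2 change of -2.48 ± 0.30 (SE, edgeR adjusted p = 2.29e-06). These 4 calls stood when any 1 library was left out, but that of Cyp2c38 was lost by DESeq2 (adjusted p = 0.0727).

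The other calls downstream of the TES rested on fewer libraries. Cyp17a1 (1.07 ± 0.22, SE, edgeR adjusted p = 0.00643), C6 (-1.74 ± 0.28, SE, edgeR adjusted p = 0.000272) and Scara5 (-3.06 ± 0.57, SE, edgeR adjusted p = 0.00199) each lost the call without 12 months replicate 2 (adjusted p = 0.317, 0.0759 and 0.125). Cyp3a59 (1.66 ± 0.36, SE, edgeR adjusted p = 0.0148) lost it without 12 months replicate 1 (0.289) and Egfr (-1.22 ± 0.25, SE, edgeR adjusted p = 0.00582) without 12 months replicate 3 (0.107). C8b (-1.18, edgeR adjusted p = 0.0262) lost it without 3 months replicate 3 or 12 months replicate 1 or 2 (0.0876 to 0.272). The glycolysis regulator gene Pfkfb3 (-1.07, edgeR adjusted p = 0.013) lost it without any 12-month library (0.0557 to 0.149). Ltbp4, a peaking gene for a matrix protein that binds latent TGF-beta, went the other way downstream (-1.05, edgeR adjusted p = 0.0251), a call lost without 3 months replicate 3 or 12 months replicate 1 or 2 (0.0995 to 0.225). The other 3 peaking genes were also called higher with less stable calls. The adrenergic receptor gene Adra1a (1.00, edgeR adjusted p = 0.0346) lost the call without replicate 1 or 2 at 3 months, any 12-month library or 18 months replicate 3 (0.0558 to 0.225), Serpinb1a (1.81, edgeR adjusted p = 0.0431) without any but 18 months replicate 2 (0.0562 to 0.365), and Osbpl3 (0.70, edgeR adjusted p = 0.044) without any but 18 months replicate 3 (0.0692 to 0.249). Under the processing alternatives, of which the windows from coding sequence ends can reach into the gene body, C6 and Scara5 kept the call. Cyp17a1 lost it by DESeq2 (0.0770), Pfkfb3 at a minimum of 10 reads (0.0626), Egfr (up to 0.225), C8b (up to 0.139) and Osbpl3 (up to 0.136) by both, and Cyp3a59 (up to 0.0609), Serpinb1a (up to 0.0515), Adra1a (up to 0.447) and Ltbp4 (up to 0.978) under 2 to 4 of the alternatives.

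In the promoter-proximal window, 89 of 128 peaking genes with reads were higher at 12 months and 144 of 240 dipping genes were lower. Of all tested genes, 51.1% were higher. The medians of the log2 difference were 0.20, -0.09 and 0.01. edgeR called 0.218% of 5053 genes higher and 0.0990% lower, and 6 peaking genes were among the higher and 2 dipping genes among the lower ones. In 12 of the 128 peaking genes (9.38%) every 12-month library lay above every other, beside 1.19% of all genes, and in 9 of the 240 dipping genes (3.75%) below, beside 0.831% of all genes.

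Cyp4a14 had 24.1 ± 8.48 promoter-proximal RPM at 3 months, then 484 ± 243 at 12 months, then 291 ± 176 at 18 months (SD, n = 3 each), a log2 change of 2.58 ± 0.27 (SE, edgeR adjusted p = 1.12e-07). Serpinb1a had 17.8 ± 7.10, 144 ± 40.2 and 48.4 ± 31.7 (SD, n = 3 each), 2.17 ± 0.27 higher (SE, edgeR adjusted p = 2.12e-06). Cyp17a1 was 1.48 ± 0.20 higher (SE, edgeR adjusted p = 8.52e-06) and Cyp2c38 1.40 ± 0.21 higher (SE, edgeR adjusted p = 7.39e-05), at starts whose upstream sequence is shown above for Cyp2c38. Cyp2a5 had 179.7 ± 17.1, 389.6 ± 111 and 140.4 ± 59.9 (SD, n = 3 each), 1.27 ± 0.21 higher (SE, edgeR adjusted p = 0.000387), a larger difference than in its gene body. Osbpl3 was 1.59 ± 0.32 higher (SE, edgeR adjusted p = 0.00839), a call absent in a window of the first 100 bases after the TSS (adjusted p = 0.731). These 6 calls stood when any 1 library was left out.

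Of the dipping genes, Scara5 was lower by a log2 change of -2.61 ± 0.50 (SE, edgeR adjusted p = 0.00577), a call lost without 12 months replicate 2 (adjusted p = 0.282). Egfr had 1989 ± 567 promoter-proximal RPM at 3 months, then 761 ± 124 at 12 months, then 1509 ± 364 at 18 months (SD, n = 3 each), lower by -1.17 ± 0.25 (SE, edgeR adjusted p = 0.0195). Its call was lost without 3 months replicate 3, 12 months replicate 2 or 18 months replicate 1 (0.0513 to 0.227), and also at a minimum of 10 reads and in the window of the first 100 bases (up to 0.0943). Cyp7b1, with one of the deepest body dips, was not called here (-0.62 ± 0.23, SE, edgeR adjusted p = 0.48).

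Upstream antisense reads were sparse, with a median of 2.67 reads per library for peaking and 6.06 for dipping genes. edgeR called 0.0618% of 4853 genes higher and 0.103% lower. At an unadjusted p under 0.05, 9 of 121 peaking genes were higher and 2 lower, and 5 of 226 dipping genes were higher and 13 lower, beside 141 higher and 116 lower of all 4853.

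**Figure D4:**
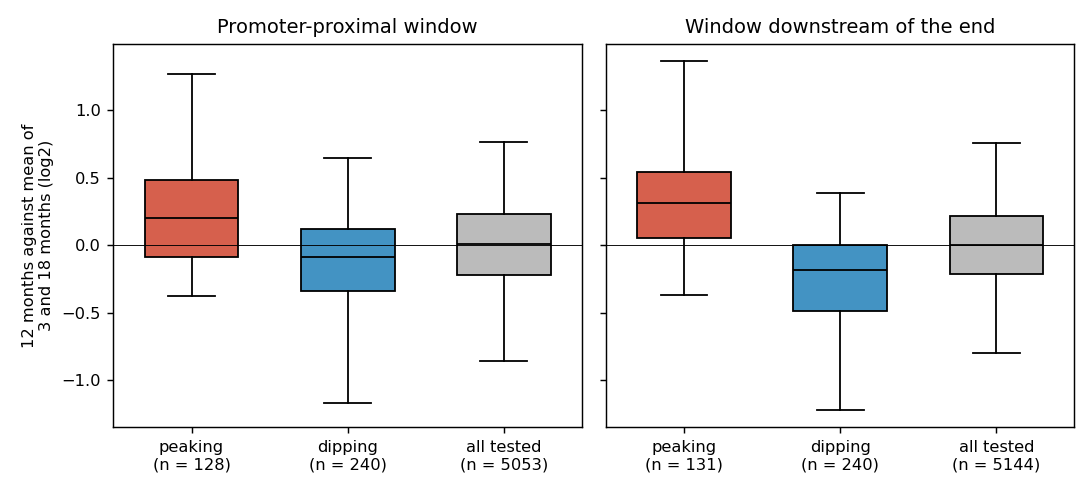
Log2 fold change of 12 months against the mean of 3 and 18 months in the promoter-proximal window (left) and downstream of the TES (right) for peaking, dipping and all tested genes with reads in the window; boxes span the quartiles with the median as a line and whiskers the 5th to 95th percentiles. The medians are 0.20, -0.09 and 0.01 on the left and 0.32, -0.18 and 0.01 on the right.

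The pausing index, promoter-proximal density over gene-body density, had a lower mean at each later age in the members as in all tested genes. Its median over the dipping genes was 2.79 ± 0.226 at 3 months, then 2.17 ± 0.119 at 12 months, then 1.41 ± 0.385 at 18 months (SD, n = 3 libraries each). Over the peaking genes it was 2.09 ± 0.226, 1.49 ± 0.126 and 1.31 ± 0.263. Over all tested genes it was 2.31 ± 0.154, 1.67 ± 0.120 and 1.24 ± 0.324. The 12-month and 18-month libraries overlapped for the peaking genes and, by a small margin, for all tested genes (1.55 to 1.79 at 12 and 0.915 to 1.56 at 18 months), and did not overlap for the dipping ones. The gene body is part of the index and was used by the rule, so no test is given.

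Peaking and dipping genes differed in base composition. The transcribed regions of dipping genes had a median GC content of 41.0%, those of peaking genes 46.4% and those of all tested genes 44.4%. Among the 1731 tested genes with the lowest GC content (33.4% to 42.3%), 8.95% dipped and 1.21% peaked. Among the 1730 in the middle, 3.99% dipped and 3.01% peaked, and among the 1731 with the highest GC content (46.7% to 65.5%), 1.04% dipped and 3.35% peaked. The median log2 difference moved with it, from -0.11 in the lowest class to 0.04 in the highest. The part of base composition in the libraries in these calls was not tested beyond the removal of the trend, which left 124 of the 242 dipping and 105 of the 131 peaking genes in place. Dipping genes were also longer, with a median of 52.0 kb and 14 exons, beside 35.2 kb and 10 exons for peaking genes and 38.9 kb and 10 exons for all.

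**Figure D5:**
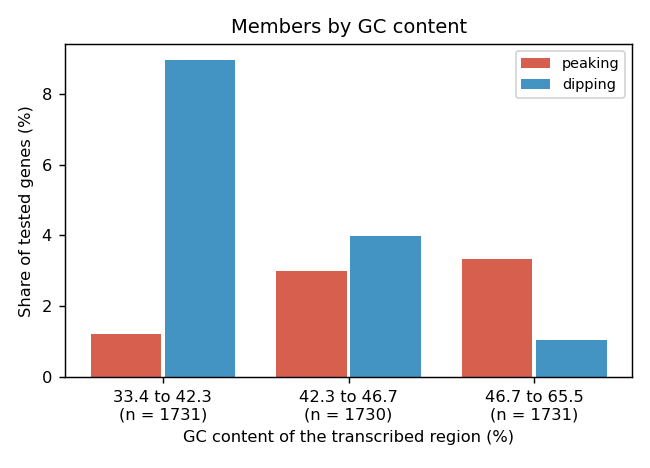
Share of tested genes (%, from 0) that peaked (red) or dipped (blue) in 3 classes of GC content of the transcribed region, with the range and the number of genes of each class under the bars. Dipping genes go from 8.95% in the class poorest in GC to 1.04% in the richest, and peaking genes from 1.21% to 3.35%.

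Promoter sequences matched 105 of the 131 peaking and 178 of the 242 dipping genes, in the RefSeq table of 300 bases around each start (250 before and 50 after), out of 3788 tested genes. Both strands were searched for 21 motifs. The ETS motif CCGGAAG was in 20.2% of the dipping and 3.81% of the peaking promoters, beside 14.5% of all tested ones. The CCAAT box CCAAT was in 49.5% of peaking, 34.3% of dipping and 36.8% of all promoters. TATAAA was in 13.3%, 7.30% and 7.97%, the nuclear receptor motif AGGTCA in 19.0%, 10.7% and 12.8%, and TTCNNNGAA, which STAT factors bind, in 2.86%, 8.43% and 6.49%. Shares were closer for the forkhead motif TGTTTAC (1.90%, 2.81% and 2.72%), the E-box CACGTG (10.5%, 10.1% and 10.1%), the antioxidant response motif TGACNNNGC (15.2%, 17.4% and 15.3%) and the GC box GGGCGG (59.0%, 66.9% and 66.0%). The other 12 motifs were each in at most 3.01% of any of these sets. These are shares of sequences, with no test, and promoters of neighbouring copies are not independent.

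Members were counted for neighbours of the same kind, with no test. Of the peaking genes, 30 of 131 (22.9%) had another peaking gene within 500 kb, whereas 9.53% of all tested genes had one. Of the dipping genes, 49 of 242 (20.2%) had a dipping neighbour, beside 14.2% of all. Several of these were gene families: Cyp2c38 with Cyp2c39, Cyp3a25 with Cyp3a59, Ces1b with Ces1c, Slc22a4 with Slc22a5, the Gstm genes, and on the dipping side Cyp4a12a with Cyp4a12b. C9 lay 314.8 kb from Osmr, the oncostatin M receptor gene, and Osmr 215.7 kb from Lifr, the leukaemia inhibitory factor receptor gene, and all dipped.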

How the data were processed

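The deposited files hold, per library and strand, counts of reads at single positions. Per the submitters' processing notes and the methods, the authors trimmed reads (cutadapt 1.13), aligned them to GRCm38 (STAR 2.7.3a) and counted the 5′ read end, the 3′ end of the RNA, with bedtools 2.29.2. How random barcodes were handled is not given in the sources used here, so repeated molecules can inflate a count. Counts were summed over the windows described above, on the canonical GENCODE vM21 transcript, in Python 3.11.15 (numpy 2.4.6, pandas 2.3.3). edgeR 4.0.16 (quasi-likelihood test, TMM factors, all 9 libraries in 1 fit, R 4.3.3, no covariate) tested each window over all tested genes, with Benjamini-Hochberg adjustment and a threshold of 0.05. The SE given with an edgeR log2 change was derived as its absolute value over the square root of the F statistic of that test. DESeq2 1.42.0 was an alternative. Scripts were tested on simulated data.

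Precision is limited by 3 mice per age and by depth, which differed more than 3-fold between libraries. Named are the 10 peaking and 10 dipping genes with the widest gap, list members (up to 5 per list and direction, others only to complete a count), genes next to the limit of the rule, and members called in a test. The members, lists and motifs were chosen with earlier results of these data known. The alternatives were other scalings, read minimums, gene ends, exonic or intronic positions, a cap of 5 reads per position, thinning, DESeq2, a replicate block and each library left out. Results of some genes are not reported here.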

Additional observations from a re-analysis of the deposited data

How the results depend on the processing

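Peaking and dipping genes numbered 131 and 242. Scaled by all reads of each library 99 genes dipped, and with the GC trend removed, chosen after seeing the data, 161 did. Leaving out 1 library gave 142 to 294 peaking and 265 to 433 dipping genes. These counts must rise where fewer libraries have to be separated. Turned in sign were the log2 differences of Srsf6 (0.083) and Cdkn1b (0.23) on intronic positions and of Nfatc2 on exonic positions (0.31). Of the other body differences of named genes under the alternatives, 763 moved by less than 1 SD and 39 by more.

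Of promoter-proximal calls among members there were 8, with 13 under the cap, 13 with the replicate block and 6 to 11 with a library left out. All genes had 11 higher and 5 lower calls there, 16 and 9 under the cap and 17 and 22 with the block. Downstream of the TES there were 15, with 7 by DESeq2, 7 at a minimum of 10 reads, 27 from coding sequence ends and 6 to 16 with a library left out, beside 18 higher and 13 lower calls over all genes, 11 and 9 by DESeq2, 12 and 7 at that minimum and 37 and 24 from coding ends. The 1 antisense call became 0 by DESeq2, 0 at the minimum of 10 reads, 0 under the cap and 0 with the replicate block, and 1 to 4 with a library left out. At 18 against 3 months there were 15 calls, with 27 by DESeq2, 9 at a minimum of 500 reads, 14 with the replicate block and 9 to 21 with a library left out, beside 321 higher and 274 lower over all genes, 470 and 471 by DESeq2, 223 and 226 at that minimum and 195 and 173 with the block. The deviations of libraries of the same replicate number correlated at -0.272 to 0.235, which does not settle whether the numbers pair libraries. Windows set from coding sequence ends can reach into the gene body that chose the genes, so their calls can draw on its reads. The causes of the changes under the alternatives were not tested. Peaking genes had a median of 26.2 promoter-proximal, 22 downstream and 2.67 upstream antisense reads per library, which limits what the last window can show.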
